A study of Mus musculus with 4 samples.

Results

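The translation factor genes are the genes for the initiation, elongation and release factors of protein synthesis, their kinases and methyltransferases, and the cytoplasmic poly(A)-binding proteins. Their m6A peaks were taken from the deposited peak tables by gene name: every name that starts with Eif or Eef and a digit or with Pabpc and a digit, and the release factor genes *Etf1*, *Gspt1* and *Gspt2*. The rule uses no measured value. It found 60 of the 13558 gene names in the 3 tables, with 125 of the 33556 peaks of the CCI list, 129 of the 34406 peaks of the sham list and 21 of the 4812 rows of a table of differential peaks.

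The peaks came from MeRIP-seq, in which fragmented poly(A) RNA is captured with an antibody against m6A (the IP library) and compared with uncaptured fragments of that RNA (the input library). Spinal cord was taken 7 days after surgery from C57BL/6J mice aged 6 to 8 weeks. In the chronic constriction injury (CCI) group, a model of neuropathic pain, the sciatic nerve was tied loosely with silk at 4 sites, and the sham group had the same surgery with no ligature. The labels give no cord segment, side, sex or number of mice per library. The study's methods name male mice for the work in animals. Each group was represented by 1 IP and 1 input library. Differences between the lists therefore had no replicates behind them, and p-values were not computed. The value of a peak is its fold enrichment, the ratio of IP over input that the authors deposited. Read counts are not part of the tables, and the depth behind a fold enrichment is unknown. As a check of the tissue, a peak was present in both lists for 4 of 4 caudal Hox genes, 6 of 6 neuronal, 3 of 3 astrocyte, 3 of 3 oligodendrocyte and 3 of 3 microglial marker genes. Muscle markers had a peak for 0 of 3 genes in either list, and dorsal root ganglion markers for 0 of 3 in CCI and 2 of 3 in sham. A peak shows that a transcript was captured and is no measure of its level.

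Translation of an mRNA starts when the cap is bound by eIF4F, eIF2 brings the initiator tRNA to the small ribosomal subunit, and eIF3 holds the assembly together while the start codon is found. Elongation factors then move the ribosome along the coding sequence, and release factors end synthesis at the stop codon. m6A is a methyl mark on adenosine inside mRNA that lies mostly near stop codons and in 3′-UTRs. A related mark, m6Am, can sit on the first transcribed base next to the cap where that base is an adenosine, and antibodies against m6A bind it too. In the spinal cord, control of protein synthesis through eIF4E, the 4E-BPs and eIF2 phosphorylation is known to take part in pain sensitisation.

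The RefSeq start sites close to a 5′-UTR peak in both lists are shown because m6Am can occur at a start only if the transcript begins with A. The sequences are from RefSeq (GRCm38.p6), and are shown for starts whose first 50 transcribed bases overlap a peak in both lists by at least 1 base. Each line runs 5′ to 3′ on the strand of the gene, with 10 bases before the start in lower case, the first 8 transcribed bases in capitals and 12 further transcribed bases in lower case. Where a gene had several starts, the one nearest the 5′ border of its CCI peak is given.
*Eef1e1* (chr13:38659009-38659038, minus strand): gtcctagctgTGCAGGCCccgcctccctag
*Eif1* (chr11:100319939-100319968, plus strand): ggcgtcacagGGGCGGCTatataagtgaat
*Eif2b2* (chr12:85219471-85219500, plus strand): ccgagcggaaGTTGACCTctctcggcccgg
*Eif3b* (chr5:140419295-140419324, plus strand): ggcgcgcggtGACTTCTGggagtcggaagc
*Eif3f* (chr7:108934405-108934434, plus strand): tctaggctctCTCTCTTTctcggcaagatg
*Eif3g* (chr9:20898571-20898600, minus strand): acccgggctgGGAGCTGCgtggagttaaga
*Eif4e2* (chr1:87213904-87213933, plus strand): ctcgccagccAACCGGAAgtagccgggccc
*Eif4ebp2* (chr10:61452650-61452679, minus strand): cgcagcgggaCGACCGGGcgagagcaggcg
*Eif5a* (chr11:69921066-69921095, minus strand): cgggggtcggGGAGGGGGgcagaagggagc
*Pabpc4* (chr4:123282901-123282930, plus strand): aaaaagaaaaGAAAAGAAgaggaaaaaaaa

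Of these starts, that of *Eif4e2* begins with A. Of the 44 factor genes with a peak and a start in the RefSeq table used here, which had 59 starts, 10 starts (16.9%) began with A, beside 34.4% of all 31409 starts. Of the 13 starts whose first 50 bases met a peak in both lists, 1 began with A. The first base itself lay under a peak in both lists at 5 of the 13, those of *Eef1e1*, *Eif1* and *Pabpc4* and 2 starts of *Eif4e2*. *Eif3f* is the one printed start that opens with C and goes on in pyrimidines, the layout of a terminal oligopyrimidine tract, which many translation genes carry. A first base C followed by 4 pyrimidines was present at 2 of the 59 starts (3.39%) and at 2.52% of all starts. The letters GGAC, the core of the usual m6A motif, were in the first 50 transcribed bases of 10 of the 59 starts (16.9%) and of 18.8% of all starts, searched on the transcribed strand only. The start used in the spinal cord may differ from the RefSeq start, and a match is no methylated site.

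Most translation factor genes carried m6A peaks in both groups. Of the 60 genes, 53 had a peak in both lists (88.3%, 95% Wilson interval 77.8 to 94.2%, counting error only), beside 86.8% of all gene names. The other 7 had a peak in 1 list only, where 13.2% of all gene names were in 1 list only. *Eif2b3* and *Pabpc5* were in the CCI list only. *Eef1akmt2*, *Eif2s3x*, *Eif3j1*, *Eif4a3* and *Pabpc4l* were in the sham list only. Each of these 7 genes had a single peak. The fold enrichment of those peaks was 5.21 for *Eif2b3* and 8.34 for *Pabpc5* in CCI, and ran in sham from 4.65 for *Eif2s3x* to 12.8 for *Eif3j1*. The *Eif2s3x* peak lay outside the RefSeq span of that gene. The sham value of 12.8 recurred in 396 peaks of that list, and the CCI list had 268 peaks at 10.4, so single values of weak peaks are coarse.

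Some abundant factors had no peak under their own name. Of 83 protein-coding RefSeq names that match the rule, 61 (73.5%, 63.1 to 81.8%) had a peak under their symbol or a synonym, beside 54.5% of the 21900 protein-coding genes. A gene without a peak may be unexpressed, thinly sequenced or unmethylated, and the lists do not tell which. No peak lay over *Eif4a1* or *Eif4a2*, the helicases of eIF4F, over the eIF3 subunit genes *Eif3e* and *Eif3m*, or over *Eif4h*, *Eef1b2* and *Eif1ax* in either list. *Eef1a1*, which delivers aminoacyl-tRNA to the ribosome, carried 2 peaks in each list that were named for *Gm26377*. The stronger of them covered chr9:78478479-78478746 in both lists, at a fold enrichment of 5.12 in CCI and 5.25 in sham, and the weaker had 4.33 in CCI and 4.39 in sham. The peak over *Eif2s2*, the beta subunit of eIF2, was named for the gene *a* and had 8.34 in CCI and 7.55 in sham. These peaks are not among the 60 members and differed little between the lists.

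**Figure D1:**
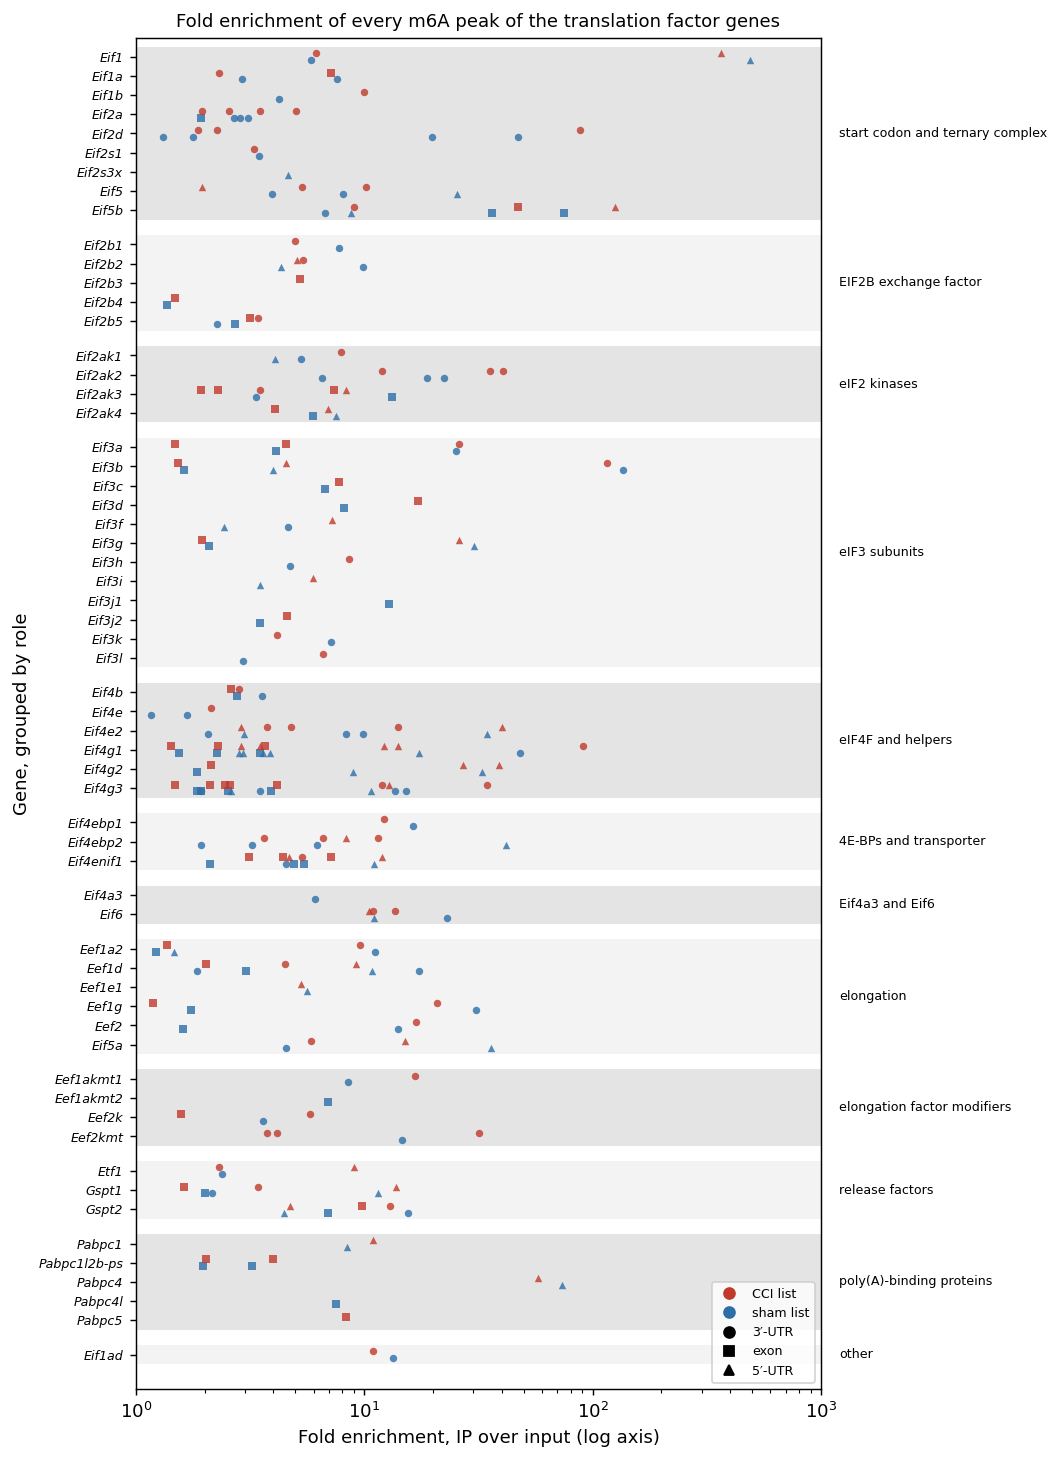
Fold enrichment of IP over input (log axis) of every m6A peak of the 60 translation factor genes, 1 row per gene, grouped by role. Red marks are the 125 peaks of the CCI list and blue marks the 129 peaks of the sham list, and the shape gives the region; the 5′-UTR peak of *Eif1* lies farthest to the right in both lists, at 366 and 488.

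The fold enrichments of these genes lay near those of all peaks. The median fold enrichment was 5.35 in CCI (95% interval of the median 4.54 to 7.20) beside 5.73 over all CCI peaks, and 4.65 in sham (3.85 to 6.75) beside 5.70 over all sham peaks. The values ran from 1.19 to 366 in CCI and from 1.17 to 488 in sham. A fold enrichment of at least 50 was reached by 6 peaks (4.80%) in CCI and 4 peaks (3.10%) in sham, beside 3.79% and 3.67% of all peaks. Exonic peak length had a median of 210 bp in the CCI list and of 211 bp in the sham list. Peaks of 61 bp or fewer made up 12% of the factor peaks in CCI and 4.65% in sham, beside 6.39% and 6.84% of all peaks. *Eif4g3* had the most peaks, 8 in CCI and 10 in sham, followed by *Eif4g1* with 8 and 9.

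By the authors' annotation, 24.8% of the factor peaks in CCI lay in a 5′-UTR (31 of 125, 95% Wilson interval 18.1 to 33.0%), beside 14.7% of all CCI peaks. In sham the share was 25.6% (33 of 129, 18.8 to 33.7%), beside 16.1% of all sham peaks. Neither interval held the share over all peaks. Peaks of 1 gene are not independent, and when a gene was counted once per region the shares were 27.5% and 27.4%. The share over all genes was not computed with this counting. These shares therefore have no background, and whether the excess holds when repeated peaks are collapsed is unknown. With every peak counted but without *Eif4g1*, which had 4 peaks in the 5′-UTR in CCI and 5 in sham, the shares were 23.1% and 23.3%. A peak is put in this class when it meets a 5′-UTR of any annotated isoform. Of the 5′-UTR peaks, 25 of 31 in CCI (80.6%) and 22 of 33 in sham (66.7%) reached the start of their annotated transcript, beside 61.9% and 62.5% of all 5′-UTR peaks. That transcript is the isoform assigned to each peak, and its start can lie inside the gene. At *Eif1* and *Eif3g* the isoform differed between the lists, and only the CCI peak counted as reaching a start. The shares of the lists therefore differ in part by isoform. The 3′-UTR held 44.8% of the factor peaks in CCI and 46.5% in sham, beside 49.8% and 48.9% of all peaks. Exons held the remaining 30.4% and 27.9%, beside 35.5% and 35.1% of all peaks.

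**Figure D2:**
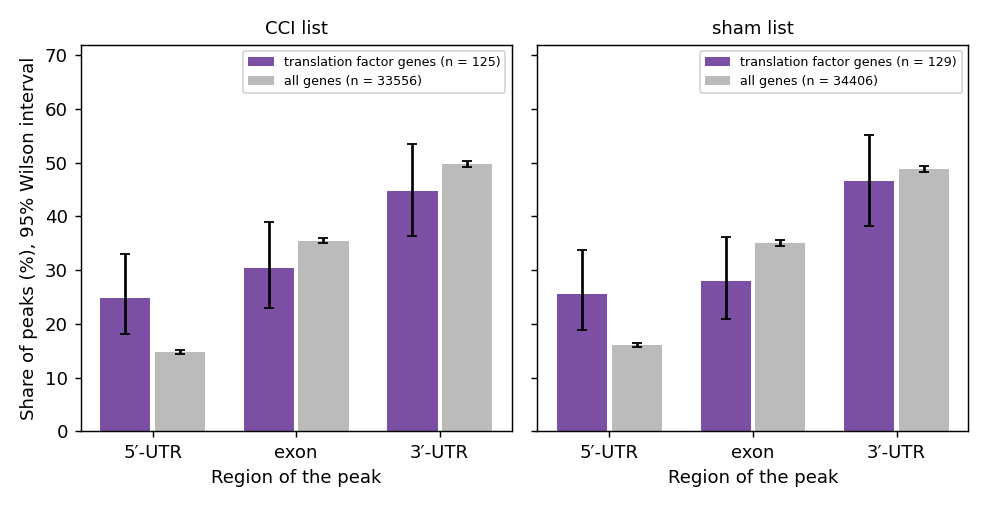
Share of peaks (%) in the 5′-UTR, in other exons and in the 3′-UTR, for the translation factor genes and for all genes, in the CCI list (left) and the sham list (right). Error bars are 95% Wilson intervals, which cover counting error only; the 5′-UTR bars of the factors are 24.8% and 25.6%, and those of all genes 14.7% and 16.1%.

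Enrichment differed between the regions in the same order in both lists. The median in CCI was 9.24 for 5′-UTR peaks, 6.36 for 3′-UTR peaks and 2.60 for exon peaks. In sham it was 8.44, 5.97 and 2.90. Over all peaks the order was the same, with 5′-UTR and 3′-UTR medians of 8.51 and 5.92 in CCI and of 8.21 and 5.81 in sham. The exon medians of the factors lay below those over all exon peaks, which were 4.69 in CCI and 4.78 in sham. Of the exon peaks, 31 of 38 in CCI and 28 of 36 in sham lay in an internal exon. Over all exon peaks the counts were 7030 of 11905 in CCI and 6862 of 12072 in sham. The 3′-UTR peaks ended a median of 627 bp before the transcript end in CCI (300 to 1343 bp) and 866.5 bp in sham (322 to 1649 bp). Over all 3′-UTR peaks the medians were 1047 and 989 bp. These distances, too, are to the end of the isoform assigned to each peak. The peak reached the transcript end in 26.8% of the 3′-UTR peaks in CCI and 23.3% in sham, beside 14.6% and 16.0% of all.

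To compare CCI with sham, a peak of one list was paired with a peak of the other where each was the best partner of the other by shared over joint exonic bases. An overlapping partner existed for 111 of 125 CCI peaks (88.8%) and 115 of 129 sham peaks (89.1%). The shares without a partner, 14 peaks in each list, stood beside 12.3% of all CCI peaks and 16.1% of all sham peaks. The peaks without a partner were short, with a median of 61 bp in CCI and 91 bp in sham against 211 bp for those with a partner in either list. Of the 14 in sham, 2 had a false discovery rate below 1e-20, and of the 14 in CCI 0 did. Both were in elongation factor genes, an exon peak of *Eef2* at a fold enrichment of 1.61 and a 5′-UTR peak of *Eef1a2* at 1.47.

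The 111 pairs gave a median log2 ratio of fold enrichment, CCI over sham, of 0.14 (95% interval of the median 0.03 to 0.26), beside 0.03 over all 27380 pairs. The value was higher in CCI in 67 pairs (60.4%, 51.1 to 69.0%) and lower in 44, where 51.8% of all pairs were higher. At least 2-fold higher in CCI were 10 pairs (9.01%), beside 8.59% of all pairs. At least 2-fold lower were 4 pairs (3.60%, 1.41 to 8.90%), beside 7.25% of all pairs. The counts past 2-fold were thus near the background for higher pairs, and the interval for lower pairs held the background. Of the 13 factor genes with 3 or more pairs, 3 (*Eif2ak2*, *Eif4g2* and *Eif5b*) had every pair higher in CCI. In 1 of them, *Eef1d*, every pair was lower, and the rest were mixed. The share of such genes over all gene names was not computed. The rank correlation of the fold enrichments across member pairs was 0.89, and 0.85 across all pairs; pairs of 1 gene share their libraries and are not independent.

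**Figure D3:**
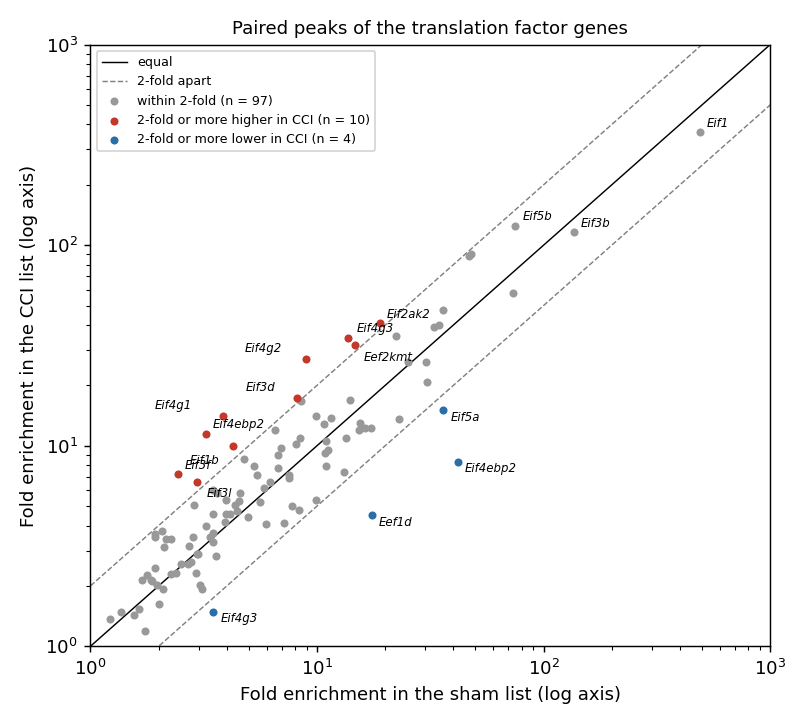
Fold enrichment of the 111 paired peaks in the sham list (x, log axis) and the CCI list (y, log axis). The solid line marks equal values and the dashed lines 2-fold differences; 10 pairs lie above the upper dashed line (red), 4 below the lower one (blue), and the strongest pairs (*Eif1*, *Eif3b*, *Eif5b*) lie between them.

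Factors of the start codon and the ternary complex, which place the initiator tRNA on the start codon, included *Eif1*, the gene with the highest factor peak in both lists. The medians of the group were 5.35 in CCI and 5.26 in sham. *Eif1*, which guards the choice of start codon, had a 5′-UTR peak at chr11:100319945-100320233 with a fold enrichment of 366 in CCI and 488 in sham. Its 3′-UTR peak was far weaker, at 6.15 in CCI and 5.86 in sham. *Eif5b*, the GTPase that joins the ribosomal subunits, had 1 long peak at 125 in CCI, reaching from the 5′-UTR across further exons, partly over the gene *Gm34448*. In sham the same stretch was called as 2 peaks, of 75.0 and 8.74. Its other pairs were also higher in CCI, at 47.3 against 36.1 in an exon and 9.03 against 6.73 in the 3′-UTR. *Eif2d*, a non-canonical initiation factor, had a 3′-UTR peak of 88.1 in CCI and 47.1 in sham, in a stretch that also lies in the gene *Rassf5*. Whether strand was used in peak calling is not given in the sources used here, so overlapping genes cannot be told apart.

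*Eif2a*, which is distinct from eIF2, had the most pairs of this group, with 2 higher and 2 lower in CCI and values of 1.93 to 5.04. *Eif2s1*, the alpha subunit of eIF2 whose phosphorylation slows initiation, had 1 pair with 3.30 in CCI and 3.46 in sham. *Eif5*, which stimulates GTP hydrolysis by eIF2, had 3′-UTR peaks of 10.2 and 5.35 in CCI and of 8.07 and 3.96 in sham. Its 5′-UTR peaks did not overlap, at 1.95 over 121 bp in CCI and 25.6 over 91 bp in sham. Both were weakly called, with a log10 false discovery rate of -4.23 in CCI and -6.41 in sham. *Eif1b*, a close relative of *Eif1*, was the only one of the group past 2-fold, with 9.96 over 267 bp in CCI and 4.24 over 149 bp in sham (log2 ratio 1.23). Over the group, 11 of 17 pairs were higher in CCI, with a median log2 ratio of 0.34.

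The subunit genes of EIF2B, the factor that recharges eIF2 with GTP, had median fold enrichments of 4.99 in CCI and 3.52 in sham. The medians of eIF4F and its helpers were lower, at 3.67 and 3.49. The EIF2B values ran from 1.48 to 5.38 in CCI and from 1.37 to 9.88 in sham, and 4 of 6 pairs were higher in CCI. *Eif2b5*, the catalytic subunit, had an exon peak of 3.16 in CCI and 2.71 in sham and a 3′-UTR peak of 3.41 and 2.26. *Eif2b2* had the highest sham value, 9.88 in the 3′-UTR against 5.38 in CCI. None of the 6 pairs was 2-fold apart.

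The kinases of eIF2 halt initiation under stress, and the direction of the difference varied among their genes. *Eif2ak2*, the kinase PKR that senses double-stranded RNA, had 3 peaks in its 3′-UTR, each higher in CCI. The longest had 40.7 in CCI over 958 bp and 18.9 in sham over 1197 bp (log2 ratio 1.11). The peak beside it had 35.4 and 22.4 over the same 300 bp in both lists, and the third had 12 and 6.51 over the same 150 bp. *Eif2ak3*, the endoplasmic reticulum stress kinase PERK, had its strongest pair in an exon, at 7.36 in CCI and 13.2 in sham over the same 661 bp (log2 ratio -0.84). It also had 3 short CCI peaks with no sham partner, at 8.34, 2.28 and 1.93. *Eif2ak4*, the amino acid sensor GCN2, was lower in CCI at both its pairs, 6.91 against 7.51 in the 5′-UTR and 4.05 against 5.97 in an exon. *Eif2ak1*, the heme-regulated kinase, had a 3′-UTR pair of 7.92 in CCI and 5.28 in sham.

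The eIF3 genes, which code for the scaffold that joins the small subunit to the mRNA, had 10 of 15 pairs higher in CCI, with a median log2 ratio of 0.19. *Eif3b* had the strongest peak, 116 in CCI and 136 in sham over the same 210 bp of its 3′-UTR. *Eif3a*, the largest subunit, had a long peak, of 1796 bp at 26.0 in CCI and of 1766 bp at 25.3 in sham. *Eif3h* had 8.60 in CCI and 4.75 in sham over the same 389 bp of its 3′-UTR. *Eif3g* had a 5′-UTR peak of 26.1 in CCI and 30.2 in sham, beside the start printed above.

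Past 2-fold in this group were *Eif3f*, *Eif3l* and *Eif3d*, all higher in CCI. The 5′-UTR peak of *Eif3f*, which begins just past the pyrimidine-rich start printed above, had 7.20 over 180 bp in CCI and 2.43 over 90 bp in sham (log2 ratio 1.57). *Eif3l* had 6.57 in CCI and 2.96 in sham in its 3′-UTR (log2 ratio 1.15). The pair of *Eif3d* had 17.2 in CCI and 8.13 in sham (log2 ratio 1.08), in an exon that the annotation assigns to another gene.

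eIF4F binds the cap and brings the mRNA to the ribosome, and its scaffold genes carried the most peaks. *Eif4g1*, the main scaffold, had 8 pairs, of which 5 were higher in CCI. Its strongest peak covered 631 bp of the 3′-UTR with the same borders in both lists, at 90.7 in CCI and 48.0 in sham (log2 ratio 0.92). One of its 5′-UTR peaks had 14.1 in CCI and 3.85 in sham (log2 ratio 1.87), while the 5′-UTR peak next to it was lower in CCI, at 12.2 against 17.3. That CCI peak of 12.2 also overlapped a separate, unpaired sham peak of 3.62. *Eif4g2*, a scaffold that acts without cap binding by eIF4E, had a 5′-UTR peak of 27.1 in CCI and 8.94 in sham over the same 211 bp (log2 ratio 1.60). Its other 5′-UTR peak had 39.1 in CCI and 32.8 in sham. This *Eif4g2* peak was the only pair past 2-fold with the same borders in both lists.

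*Eif4g3*, the third scaffold gene, had a pair past 2-fold in each direction. Its 3′-UTR peak had 34.6 over 780 bp in CCI and 13.7 over 360 bp in sham (log2 ratio 1.34), and the rest of that stretch was called in sham as a separate peak of 1.93. Another pair had 1.49 over 90 bp in CCI, annotated as exon, and 3.49 over 240 bp in sham, annotated as 3′-UTR (log2 ratio -1.23). *Eif4e*, the cap-binding protein itself, had one weak pair of 2.13 in CCI and 1.68 in sham. *Eif4e2*, a cap-binding relative that represses translation, had a 5′-UTR peak of 40.1 in CCI and 34.6 in sham. Over the group, 18 of 27 pairs were higher in CCI.

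The 4E-BPs hold eIF4E away from the scaffold until mTOR phosphorylates them. *Eif4ebp2*, the form that prevails in the nervous system, had the pair with the largest difference of all the factors. Its 5′-UTR peak had 8.34 over 61 bp in CCI and 41.8 over 211 bp in sham (log2 ratio -2.33). A 3′-UTR peak of the same gene went the other way, at 11.5 over 91 bp in CCI and 3.23 over 211 bp in sham (log2 ratio 1.83). Both pairs were weakly called. The log10 false discovery rate was -2.35 in CCI and -10.5 in sham for the 5′-UTR pair, and -3.7 and -4.09 for this 3′-UTR pair. Its most significant pair in both lists, in the 3′-UTR, had 6.58 in CCI and 6.19 in sham. *Eif4ebp1* had one pair of 12.2 in CCI and 16.3 in sham. *Eif4enif1*, which carries eIF4E into the nucleus, had 6 CCI and 5 sham peaks, the highest at 12 in CCI with no sham partner and at 11.0 in sham. That CCI peak also lies over *Gm51877* and *Sfi1*, and had a log10 false discovery rate of -2.49. The sham peak of 11.0 lies over *Drg1* and *Sfi1*, and its CCI partner was named for another gene.

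*Eif6*, which keeps the large ribosomal subunit free, had a 3′-UTR pair of 13.6 in CCI and 23.0 in sham. *Eif4a3*, a helicase of the exon junction complex, had 1 peak, in sham only, of 6.07 in the 3′-UTR.

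Elongation factor genes had 3 of 11 pairs higher and 8 lower in CCI, with a median log2 ratio of -0.23, and both of the group's pairs past 2-fold were lower. *Eef1d*, a subunit of the exchange factor of eEF1A, was lower at 3 of 3 pairs. Its 3′-UTR peak had 4.52 over 121 bp in CCI and 17.4 over 390 bp in sham (log2 ratio -1.94), and its long 5′-UTR peak had 9.24 in CCI and 10.8 in sham over 1258 bp in each. *Eif5a*, which helps the ribosome form difficult peptide bonds, had a 5′-UTR peak of 15.1 over 60 bp in CCI and 36.0 over 90 bp in sham (log2 ratio -1.25). Its 3′-UTR peak, which also meets the gene *Gps2*, had 5.83 in CCI and 4.55 in sham. *Eef1g*, another exchange factor subunit, had 20.8 in CCI and 30.7 in sham in the 3′-UTR.

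*Eef1a2*, the form of eEF1A of neurons and muscle, had 9.57 in CCI and 11.2 in sham in the 3′-UTR. *Eef2*, which drives translocation, had 16.9 in CCI and 14.0 in sham over the same 540 bp. Genes that modify elongation factors had 3 of 3 pairs higher in CCI. *Eef2k*, the kinase that inhibits eEF2, had 5.80 in CCI and 3.61 in sham. *Eef2kmt*, a methyltransferase of eEF2, had 31.8 in CCI and 14.7 in sham (log2 ratio 1.11), and *Eef1akmt1*, a methyltransferase of eEF1A, had 16.7 and 8.46. The 11 elongation pairs are from 6 genes and the 3 modifier pairs from 3 genes, and neither count was tested.

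**Figure D4:**
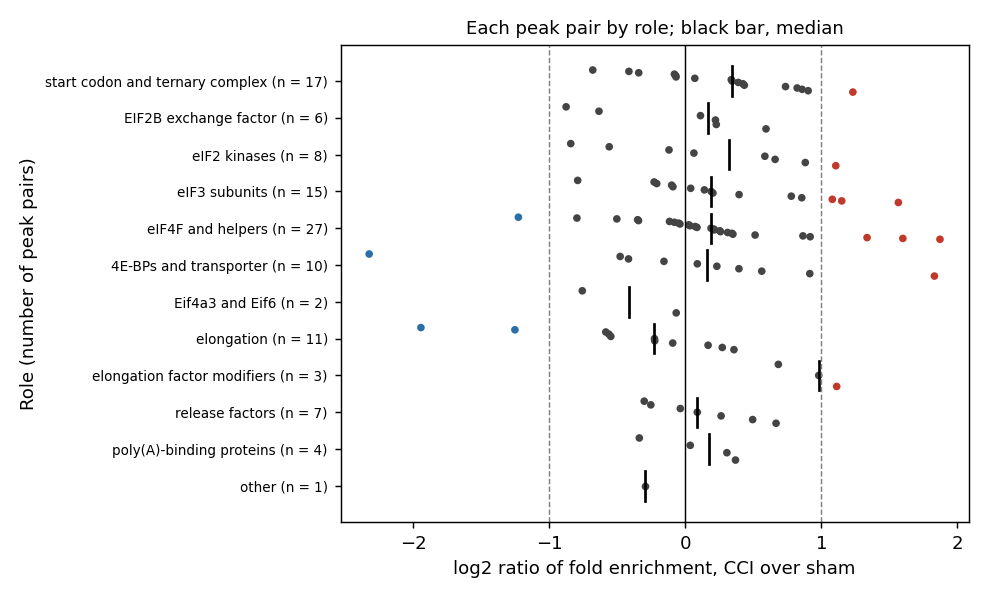
The log2 ratio of fold enrichment (CCI over sham) of each of the 111 peak pairs by role of the gene, with the median of each role as a black bar and 2-fold differences as dashed lines. Red and blue points are pairs at least 2-fold higher or lower in CCI; 8 of the 11 elongation pairs lie left of 0, and 11 of the 17 pairs of the start codon group lie right of it.

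The paired peaks of release factor and poly(A)-binding protein genes were all within 2-fold of each other, 11 pairs in all. *Etf1*, which reads the stop codon, had a 3′-UTR pair of 2.32 in CCI and 2.38 in sham, and a 5′-UTR peak of 9.03 in CCI with no sham partner. *Gspt1*, the GTPase that acts with it, had a 5′-UTR peak of 13.8 in CCI and 11.5 in sham. *Gspt2*, a relative of *Gspt1*, had its highest value in sham, 15.5 in the 3′-UTR against 13.0 in CCI. *Pabpc1*, the main protein on the poly(A) tail, had 1 peak, in the 5′-UTR, of 10.9 in CCI and 8.44 in sham. The 5′-UTR peak of *Pabpc4* was among the strongest, at 57.9 in CCI and 73.2 in sham over the same borders. *Pabpc5*, with 8.34 in CCI only, and *Pabpc4l*, with 7.55 in sham only, had no pair. *Eif1ad*, which falls in none of these roles, had a 3′-UTR pair of 10.9 in CCI and 13.4 in sham.

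The largest differences were frequent among pairs of unequal length. Pairs whose exonic lengths were at least 1.5-fold apart made up 17 of the 111, and 8 of them (47.1%) were past 2-fold in fold enrichment, against 6 of the other 94 (6.38%). Over all pairs these shares were 25.9% and 13.3%. In 7 of the 8 (87.5%) the longer peak had the higher fold enrichment, beside 90.6% of all such pairs, and the *Eif4ebp2* 3′-UTR pair was the exception. Of the 24 pairs with the same borders in both lists, 1 (4.17%) was past 2-fold, beside 11.5% of all pairs with the same borders. The median absolute log2 ratio was 0.34 for these 24 pairs and 0.37 for the other 87. Of the 61 pairs with a false discovery rate below 1e-20 in both lists, 5 (8.20%) were past 2-fold, beside 10.6% of all such pairs. They were *Eif1b*, *Eif2ak2*, *Eef2kmt*, *Eif4g2* and *Eif4g3* in its 3′-UTR, all higher in CCI. The part of the borders in the differences was not tested.

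**Figure D5:**
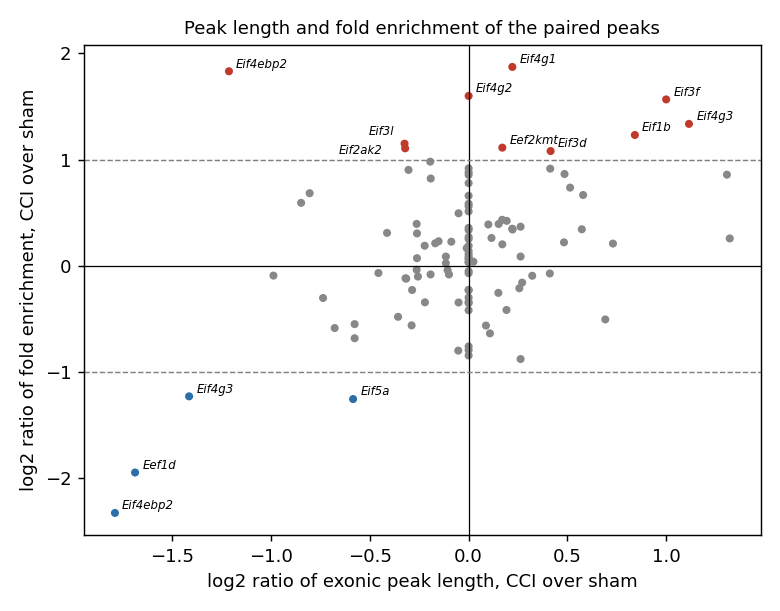
The log2 ratio of exonic peak length (x) and of fold enrichment (y), both CCI over sham, for the 111 peak pairs. Red and blue points are at least 2-fold higher or lower in CCI; the 4 blue pairs all have a shorter peak in CCI, and *Eif4g2* sits at equal length.

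The table of differential peaks named 18 of the 60 genes (30.0%), beside 25.3% of all gene names, in 21 rows, with 12 rows in 3′-UTRs, 6 in exons and 3 in 5′-UTRs. Its positions met 19 of the 125 CCI peaks (15.2%) and 21 of the 129 sham peaks (16.3%), beside 15.6% and 14.3% of all peaks. The 5′-UTR rows were those of *Eif1*, *Eif3f* and *Eef1a2*. *Eef1d*, *Eef2* and *Eif5b* had 2 rows each. Of the factor pairs past 2-fold, those of *Eif1b*, *Eif3f* and *Eef1d* and the lower pair of *Eif4g3* met a row. The others past 2-fold did not. Some pairs within 2-fold did, such as the long *Eif3a* pair at 26.0 in CCI and 25.3 in sham. How often pairs past 2-fold met a row over all genes was not computed.

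Translation genes outside the name rule, such as eIF4E kinases, diphthamide enzymes and mitochondrial factors, also carried peaks. Of 40 such genes, 31 had a peak in both lists, 1 (*Tsfm*) in sham only and 8 in neither, so that 80% had a peak in either list, beside 54.5% of all protein-coding genes. Here too, the lack of a peak may come from low expression or depth, so these shares are no measure of methylation. The 40 genes gave 72 pairs, of which 41 (56.9%) were higher in CCI, 6 (8.33%) at least 2-fold higher and 4 (5.56%) at least 2-fold lower, with a median log2 ratio of 0.07. Over all pairs these shares were 51.8%, 8.59% and 7.25%. Past 2-fold were, among others, *Fmr1*, the repressor of synaptic translation, with 33.9 in CCI and 8.13 in sham in the 5′-UTR, and *Atf4*, the transcription factor induced when eIF2 is phosphorylated, with 29.5 in CCI and 67.4 in sham in the 3′-UTR.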

How the data were processed

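The analysis started from 3 deposited tables, a list of peaks for CCI, one for sham and one of differential peaks. Per the submitters' processing notes, fastp, HISAT2, HOMER, ChIPseeker and GRCm38 were used, whereas the study's methods name Cutadapt, bowtie, MACS2 and ChIPseeker. The fold enrichment deposited by the authors is a ratio of IP over input. The deposited log10 false discovery rate of each peak was handled as a score. The differential table also holds log2 fold changes, p-values and false discovery rates that the authors computed between the groups, and none of these was used.

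Overlap was at least 1 bp of exonic blocks. Paired peaks were each other's best partner by shared over joint bases. All pairs were formed on the whole lists. Shares carry 95% Wilson intervals and medians 95% order-statistic intervals, for counting error only. In a simulation of 3000 peaks, 2400 of 2400 true pairs were recovered. The simulated peaks lay apart, kept their length in both lists and were never split or merged. This checks the code only and does not show how well the real peaks were paired. All 60 names matched RefSeq GRCm38.p6, 59 as symbols and 1 as a synonym.

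Genes named in the text were, in each role, those with the most peaks or the highest fold enrichment, every pair past 2-fold, genes in 1 list only and a preset list of major factors. Members, roles and lists were chosen with earlier results of these data known. *Eif2ak1*, *Eif2d*, *Eif3g*, *Eif4e2*, *Eif5*, *Eif5b*, *Eef1akmt1*, *Eif2s2*, *Fmr1*, *Atf4* and most genes without a peak of their own were named after their values were seen. Alternatives covered filters, overlap, the fold, centring and the core factors. Software was matplotlib 3.10.9, scipy 1.17.1, pandas 2.3.3, numpy 2.4.6 and Python 3.11.15.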

Additional observations from a re-analysis of the deposited data

How the results depend on the processing

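In all, 104 values were recomputed under 14 other settings, 4 of them chosen after seeing the data. Of these values, 94 stayed within the interval, or within 1.5 times the count, of the reported value, and 10 moved. When each peak of a pair had to be covered to at least 50%, this lowered the share of sham peaks with a partner to 80.6% and left 1 pair at least 2-fold lower in CCI. With the highest peak of each gene, the median fold enrichment was 9.96 in CCI and 9.17 in sham. At 1.5-fold, 26 pairs were higher and 11 lower. Shares of all pairs by direction were not computed at this fold or for the settings that follow, so these counts have no background. Among pairs with the same borders, 1 was higher and 0 lower, and among pairs with a false discovery rate below 1e-20 in both lists 5 were higher and 0 lower; both settings keep fewer pairs, 24 and 61. No paired analysis was possible because a single IP and a single input library stood for each group. The unknown read depth and the single library per group limit each ratio, and fold enrichments rest on different inputs and borders.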
